A study of Trifolium repens with 6 samples.

Results

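A small set of petal transcripts of a red-flowered white clover mutant was abundant when the flowers developed under a shading net and almost absent when they developed in the open field. The set was defined on FPKM, a measure of transcript abundance that corrects fragment numbers for transcript length and library size. Members had a length of at least 500 bases, an FPKM of at least 10 in each shaded library and an FPKM under 1 in each field library. Of 152107 assembled transcripts (unigenes) with reads in at least 1 library, 33 met this rule. Because the rule uses the levels in all 6 libraries, the difference between shaded and field petals is described here and is not tested for these transcripts.

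All libraries came from petals of the same mutant of Trifolium repens, a forage legume. Its plants stood in the field until the budding stage and were then divided. The field group (3 libraries, red petals) stayed in the open, and the shaded group (3 libraries, white petals) was covered from above by a net that kept direct sun off the flowers. Petals of other genotypes were not analysed here, so both groups carry the mutation. Whether each library is a separate plant or a pool is not stated, nor whether the mutant is a single clone, so the spread between libraries may be partly technical.

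Red petal colour in most flowering plants comes from anthocyanins, flavonoid pigments stored in the vacuole. Light promotes their synthesis: photoreceptors restrain the COP1 ubiquitin ligase, light-signalling factors such as HY5 accumulate, and complexes of MYB, bHLH and WD-repeat proteins switch on the pigment enzymes. Shade also raises transcripts of its own in leaves and stems, through PIF transcription factors that are held back by active phytochrome in full light. The deposited tables identify transcripts only by assembly IDs and do not pair them with gene names, so no member is assigned to any of these pathways, and the petal origin of the RNA could not be checked against marker genes. Only the 2 most abundant members are given by ID, and the others are described by length. No sequence is printed, since the tables hold none.

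The libraries held 14221859 to 20414104 expected counts, the read numbers that RSEM estimates for each unigene. Of the unigenes of at least 500 bases, 8537 reached an FPKM of 10 in each shaded library, and they are the setting in which the 33 stand. For 7777 of these (91.1%) at least 1 field library was also at 10 or more. The highest field value lay between 5 and 10 for 506, between 2 and 5 for 181 and between 1 and 2 for 40. The 33 members make up 0.387% of the 8537 and form the low end of this series. With the conditions exchanged, the same thresholds gave 56 unigenes, present in the field and nearly absent under shade.

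The members together took up 0.112% ± 0.0199 (SD, n = 3) of the expected counts under shade and 0.00141% ± 0.00062 in the field. Their summed FPKM was 1111, 864 and 876 in shaded replicates 1 to 3 and 8.18, 8.61 and 16.5 in field replicates 1 to 3. In shaded petals they stood at percentiles of 88.0 to 98.5 among the unigenes with an FPKM above 0, averaged over the shaded libraries, but below the most abundant. By mean shaded FPKM their ranks ran from 1211 to 9222 among all unigenes, and none was among the 1000 highest. The median over members of the mean shaded FPKM was 22.5, with a range of 12.8 to 92.9. In bulk petal RNA, fewer cells of a type and less RNA per cell cannot be told apart, and this holds for every level given here.

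Unigene43710_All, a single unigene of 671 bases, had the highest level. Its FPKM was 105, 88.4 and 85.5 in shaded replicates 1 to 3 and 0.14, 0.11 and 0.26 in field replicates 1 to 3. The field values rest on 4 expected counts in all, against 2462 in the shaded libraries, so the transcript was barely detectable in red petals. Unigene17272_All, 1677 bases long, lay at a similar level and was steadier under shade. Its FPKM was 93.8, 88.3 and 84.2 under shade, a mean of 88.8 ± 4.82 (SD, n = 3), and 0.90, 0.31 and 0.45 in the field. Its shaded libraries differed by a factor of only 1.11 between the highest and the lowest, the narrowest spread of the 33 members. These 2 transcripts supplied 15.6% of all member counts under shade and 6.08% in the field.

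A further 3 members kept an FPKM over 40 in every shaded library, and all are contigs of an assembly cluster. A contig of 805 bases had 70.7, 62.0 and 71.7 FPKM in shaded replicates 1 to 3 and 0.22, 0.09 and 0.40 in the field. A contig of 2251 bases had 62.0, 42.4 and 55.7 FPKM under shade and 0.21, 0.20 and 0.92 in the field. A contig of 1185 bases had 41.8, 50.6 and 41.8 FPKM under shade and 0.91, 0.73 and 0.70 in the field. The last was the most even of these in the field, with a signal between 0.70 and 0.91 in every library. Together with the pair above, the 5 most abundant members made up 36.6% of the summed shaded FPKM of the set.

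The next 5 members by their lowest shaded value lay between 20 and 60 FPKM in all shaded libraries. A 970-base contig had 45.2, 33.4 and 31.2 FPKM under shade, no read in field replicate 1, and 0.07 and 0.94 in field replicates 2 and 3. A 2350-base contig had 55.0, 29.2 and 29.5 FPKM under shade and 0.29, 0.48 and 0.79 in the field. Both were higher in shaded replicate 1 than in the other shaded libraries. A 537-base single unigene, the shortest member, had 37.7, 25.8 and 41.2 FPKM under shade and no read, 0.62 and 0.37 in the field. A second single unigene of 671 bases had 27.3, 21.7 and 23.8 FPKM under shade, and its field signal was 1 read, in field replicate 3. A 1368-base single unigene had 28.8, 27.6 and 21.2 FPKM under shade and no read, 0.91 and 0.81 in the field. The other 23 members had a lowest shaded FPKM of 10.3 to 20.6.

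**Figure D1:**
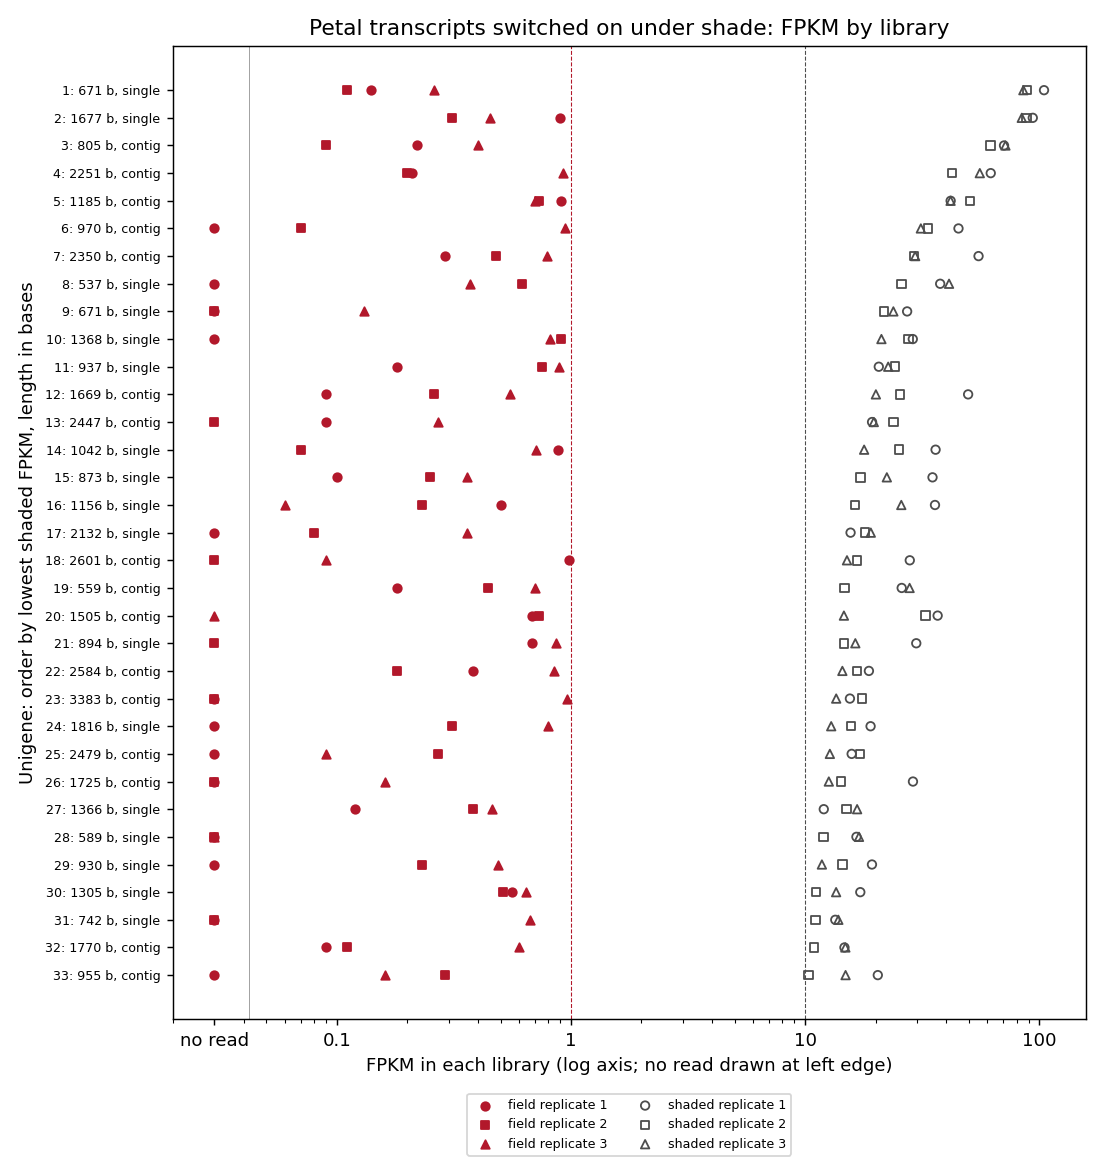
FPKM of the 33 members in each library on a log axis, 1 line per unigene, ordered by the lowest shaded value and labelled with length in bases (b) and kind. Filled red symbols are field and open grey symbols shaded libraries, dashed lines mark the limits of the rule at 1 and 10, and a library without reads is drawn at the left edge, where symbols may coincide. The shaded values run from 10.3 to 105 and the field values from no read to 0.98, a gap that the rule itself sets.

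The thresholds force a gap of over 10-fold in every member, and its width varied widely. Dividing the lowest shaded by the highest field FPKM gave 14.1 to 329 for the 32 members with a field read, with a median of 32.9. The shaded-to-field ratio of counts, summed per condition and divided by depth, was 24.98 to 577 for the same 32, under 50 for 9, between 50 and 100 for 10 and over 100 for 13. The median of this ratio was 68.6, or 73.7 with the member that had no field read placed at its bound. The ratio of Unigene43710_All was 552, with a 95% Clopper-Pearson counting interval of 215 to 2028. That of Unigene17272_All, which had more field reads, was 166 (121 to 234). The widest interval belonged to the second 671-base unigene, at 577 (103 to 22820), because its ratio rests on a single field read. These intervals cover counting error only, and they do not allow for the selection of the members on levels in the same libraries.

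One member, a single unigene of 589 bases, had no read in any field library. Its FPKM under shade was 16.6, 11.97 and 17.0, from 332 counts. With the field group placed at an assumed floor of 3 counts, its shaded-to-field ratio of counts was 99.3. This bound depends on the chosen floor and carries no interval. Of the other members, 4 had reads in 1 field library, 12 in 2 and 16 in all 3. The summed field counts of a member were 0 to 56, with a median of 17, while the summed shaded counts were 332 to 7226, with a median of 1585. A median of 17 counts over 3 libraries means that the field levels of most members are known only roughly, and differences among members in the field are hardly resolved.

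All 33 members had enough counts for edgeR's quasi-likelihood test across 46778 unigenes. It called 32 of them higher in shade at an adjusted p under 0.05, against 10.3% of all tested unigenes called in either direction and 4.72% called higher. The rule used the same contrast, so nothing is read from this count. The member without a call is the longest, a contig of 3383 bases. Its FPKM was 15.5, 17.5 and 13.6 under shade, it had no read in field replicates 1 and 2, and it had 0.96 in field replicate 3, from 52.5 expected counts. The field signal of this contig thus came wholly from 1 library. The median fitted log2 fold change was 6.12 over the members and -0.02 over all tested unigenes.

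The limits of the rule cut through a continuous range. Just inside the field limit were members with a highest field FPKM of 0.94, 0.96 and 0.98, and just outside were unigenes at 1, 1.04 and 1.07. The lowest shaded FPKM of these outside neighbours was 12.02, 17.7 and 18.1. Just inside the shaded limit, the lowest shaded FPKM was 10.3, 10.9 and 11.1, and just outside it was 9.92, 9.35 and 9.21. The unigene at 9.92 had no field read, and it shares a cluster with the 970-base member. Below the length limit, 2 further unigenes met the expression limits, with 201 and 464 bases.

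The small remaining signal in field petals was uneven among the libraries. Member reads were found for 20 members in field replicate 1, 25 in field replicate 2 and 31 in field replicate 3. The median member FPKM in these libraries was 0.10, 0.23 and 0.49. Field replicate 3 had the highest field value for 22 of the 32 members with a field read (68.8%), and field replicates 1 and 2 for 5 each. Among 8936 other unigenes of at least 500 bases with field reads but an FPKM under 1 in each field library, field replicate 3 was the highest for 37.3%. Its depth of 17369632 expected counts was close to the 17360540 of field replicate 2. The lead of field replicate 3 was thus more frequent among the members than among other unigenes at such field levels, a difference that is given as a description and was not tested.

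The number of members depends on that library. Without field replicate 3, 99 unigenes met the rule, 66 more than with it, whereas without field replicate 1 the number was 33 and without field replicate 2 it was 38. In field replicate 3 the 66 additional unigenes had an FPKM of 1 to 14.95, with a median of 2.58, and 57 of them were under 5. All 66 lay below every shaded library there, which the shaded minimum of 10 sets in advance for all but the 2 that reached 10 or more. Field replicate 3 also had the longest fragments by the difference between length and effective length, with a median of 228 bases, against 166 and 168 bases in field replicates 1 and 2. The part of fragment length in these values was not tested.

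**Figure D2:**
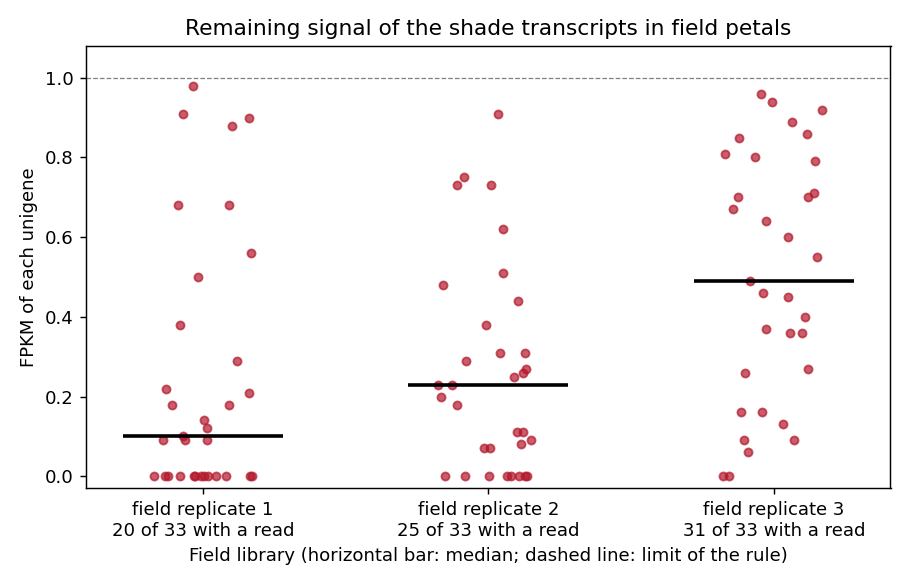
FPKM of the 33 members in each field library, with 1 point per unigene spread sideways for legibility, the median as a horizontal bar and the limit of the rule as a dashed line. The median was highest in field replicate 3, at 0.49, against 0.10 and 0.23 in field replicates 1 and 2, and reads were found there for 31 of the members.

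Fragment length divided the libraries across the conditions, with field replicates 1 and 2 and shaded replicate 1 in a short class and the other 3 libraries in a long class. The difference between conditions was present in both. In the short class the summed member FPKM averaged 8.39 over the 2 field libraries, and the shaded library had 1111, a ratio of 132. In the long class the field library had 16.5 and the 2 shaded libraries 870 on average, a ratio of 52.7. Both sides differed between the classes, since shaded replicate 1 had the highest and field replicates 1 and 2 the lowest sums. Over all libraries the ratio was 85.7. The rule requires a gap in every library, so a ratio above 10 in each class follows from it.

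Among the shaded libraries the members varied moderately, and shaded replicate 1 was most often the highest. Shaded replicate 1 had the highest FPKM for 20 of the 33 members (60.6%), shaded replicate 3 for 8 and shaded replicate 2 for 5. Among 8504 other unigenes with the same minimum length and the same minimum in each shaded library, shaded replicate 1 was the highest for 37.9%. In CPM scaled by the TMM method, which does not use fragment length, it was the highest for 25 members (75.8%) and for 43.2% of the others. The median member stood 0.17 above its shaded mean on the log2 FPKM scale in shaded replicate 1, against 0.02 for the other unigenes. In shaded replicates 2 and 3 the members stood at -0.14 and -0.10, and the other unigenes at 0.03 and -0.08. The values compared here come from the shaded libraries only, but the field limit of the rule is what separates the members from the others. The members are also not independent of each other, and the difference was not tested.

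The ratio of the highest to the lowest shaded FPKM was 1.11 to 2.51 over the members, with a median of 1.45. The median over the 8504 other unigenes was 1.33. A ratio over 2 was found for 7 members (21.2%) and for 11.03% of the others, and in all 7 of these members shaded replicate 1 was the highest. A ratio of 2 libraries cannot exceed that of 3, and the median member ratio was 1.22, 1.27 and 1.33 without shaded replicates 1, 2 and 3, with 1, 4 and 4 members over 2. The largest ratio was in a contig of 1505 bases, with 36.8, 32.7 and 14.6 FPKM in shaded replicates 1 to 3 and 0.68, 0.73 and no read in the field. Here the low value of shaded replicate 3 set the ratio. A contig of 1669 bases had nearly as large a ratio, 2.48, with 49.7, 25.4 and 20.05 FPKM, and in that case the high value of shaded replicate 1 set it. By SD relative to the mean, the 1669-base contig was the more variable, at 49.8% against 42.0%.

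**Figure D3:**
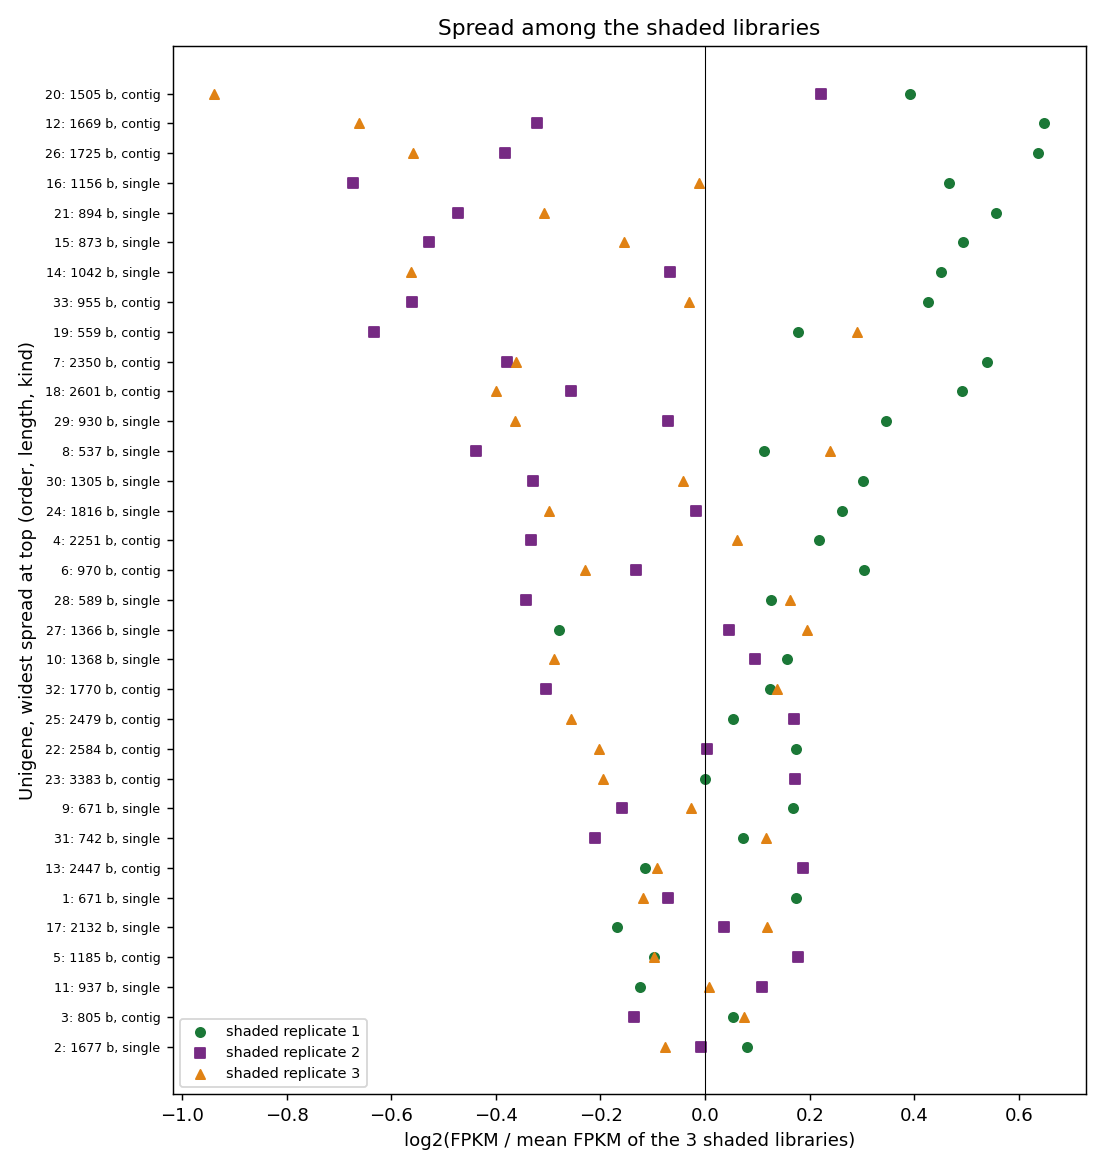
Deviation of each shaded library from the mean of the 3 shaded libraries, as log2 of the FPKM ratio, for the 33 members with the widest spread at the top. Circles (shaded replicate 1) lie to the right of the other symbols for 20 members, including all 7 whose highest and lowest libraries differ by more than a factor of 2, while Unigene17272_All at the bottom spans a factor of 1.11.

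The members were of ordinary transcript size. Their lengths ran from 537 to 3383 bases with a median of 1305, and the 8504 other unigenes at the shaded level had a median of 1551. Of the members, 13 were shorter than 1000 bases, 20 had 1000 or more and 8 had 2000 or more. Single unigenes, which the assembly placed in no cluster, were 17 of the 33 (51.5%), and they were 37.4% of the 8504 others. The remaining 16 members are contigs of 15 clusters. In assemblies of this kind a cluster gathers similar contigs, such as splice forms, alleles, related genes or the copies that the parental subgenomes of allotetraploid white clover contribute.

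The clusters allow a member to be set beside similar contigs, as far as the division of shared reads permits. The 15 clusters held 35 further contigs, of which 25 had a higher FPKM in every shaded library than in any field library, 10 overlapped between conditions and none was lower in every shaded library. Over all 56146 cluster contigs, at any level, 13.5% were higher in every shaded library. The 35 come only from clusters with a contig at an FPKM of at least 10 in each shaded library, so the shares are not matched on level. Of the 35, 26 had enough counts for the edgeR test. It called 15 higher and none lower and left 11 not called, against 4.72% called higher and 10.3% called in either direction over all tested unigenes. These cluster mates were not used by the rule. They can share reads with a member, however, and RSEM divides such reads between them, so the count is a description and not independent support. Leaving out a library changed it to 18 (field replicate 3), 8 (shaded replicate 1), 5 (shaded replicate 2) or 11 (each of the other 3 libraries). The median fitted log2 fold change of the 26 tested mates was 3.64.

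Summed over all contigs, 14 of the 15 clusters had a higher FPKM in every shaded than in every field library, as did 32.9% of the 5435 clusters that reached a summed FPKM of 10 in each shaded library. Each of the 15 sums includes a member chosen for this separation, so nothing is read from the difference between these shares. For the 14 clusters, the lowest shaded sum was 5.41 to 159 times the highest field sum. Sums that include contigs not much longer than the fragments are rough, since the FPKM of such contigs rests on a short effective length.

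In 5 clusters the whole sum stayed under an FPKM of 1 in each field library, so that no form was present in red petals at that level. The clearest were 2 of these. The 805-base member supplied 92.7% to 98.2% of its cluster under shade, and the cluster sum was 72.0, 63.6 and 77.3 in shaded replicates 1 to 3 and 0.22, 0.09 and 0.40 in the field. A cluster of 3 contigs was the only one with 2 members, of 2479 and 2447 bases. The first had 15.8, 17.1 and 12.8 FPKM under shade and the second 19.3, 23.8 and 19.6, and both had 0.27 or less in every field library. The third contig, of 357 bases, had 8.98, 8.0 and 11.6 FPKM under shade and no field read, and the sum of the cluster was 44.0 to 49.0 under shade and 0.09 to 0.36 in the field. All 3 contigs were thus near or at 0 in the field and present in each shaded library.

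In 9 clusters the sum separated the conditions but some field signal came from other contigs. The 1185-base member had a mate of nearly the same length, 1194 bases, with 67.1, 85.1 and 44.1 FPKM under shade and 1.56, 5.34 and 2.71 in the field. The mate was called higher in edgeR (log2 fold change 4.29, adjusted p = 0.00781) and was more abundant than the member in every library. Of all mates, 12 reached an FPKM of 10 in each shaded library, and all 12 had 1 or more in at least 1 field library, as they would otherwise be members unless shorter than 500 bases. The largest cluster, of 7 contigs, had a 2601-base member with 27.98, 16.7 and 15.1 FPKM under shade and 0.98, no read and 0.09 in the field. Its sum was 170, 120 and 118 under shade and 2.98, 4.30 and 16.6 in the field, again with field replicate 3 the highest field library.

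One cluster behaved differently. Its member, a contig of 1725 bases, had 28.9, 14.3 and 12.6 FPKM in shaded replicates 1 to 3, no read in field replicates 1 and 2 and 0.16 in field replicate 3. The 3 other contigs, of 1743 to 1821 bases, were present in both conditions, with 6.91 to 34.2 FPKM in the field and 2.59 to 31.0 under shade. Among the shaded libraries all 3 were lowest in shaded replicate 1, where the member was highest. In shaded replicates 1 to 3 the contig of 1743 bases had 2.59, 18.7 and 17.3 FPKM. That of 1745 bases had 15.3, 31.0 and 28.6, and that of 1821 bases 14.9, 19.45 and 23.6. None of the 3 was called in edgeR, with log2 fold changes of 0.66, -0.17 and -0.55 and adjusted p-values of 0.26, 0.82 and 0.63. The summed cluster overlapped between conditions, at 53.6, 70.2 and 46.4 FPKM in the field and 61.7, 83.4 and 82.1 under shade. The member made up at most 0.345% of the cluster's FPKM in the field and 46.8%, 17.1% and 15.4% under shade. In this cluster the share of the member differed between conditions while the totals overlapped. How far the division of shared reads contributes to this was not tested.

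**Figure D4:**
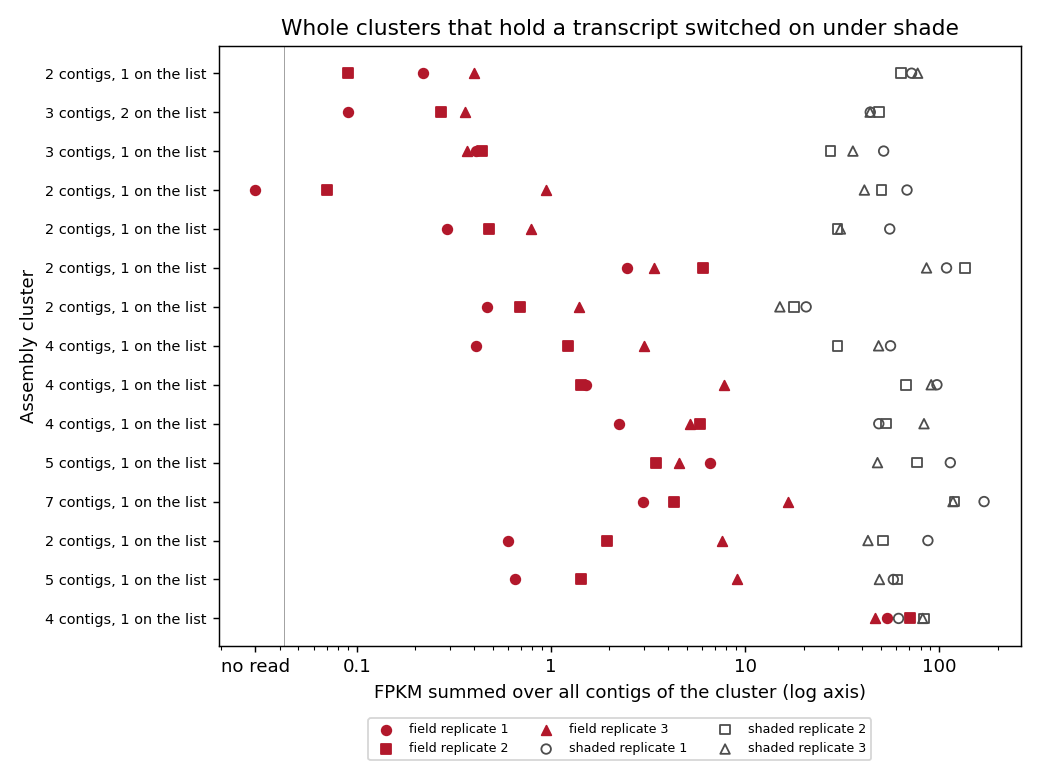
FPKM summed over all contigs for each of the 15 clusters that hold a member, 1 line per cluster on a log axis, with filled red symbols for field and open grey symbols for shaded libraries. In 14 clusters every shaded sum lies to the right of every field sum, 5 clusters stay under 1 in all field libraries, and the cluster of 4 contigs at the bottom overlaps, at 46.4 to 70.2 in the field and 61.7 to 83.4 under shade.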

How the data were processed

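Petal RNA of 6 libraries was used, 3 per condition, grouped by the source labels and numbered by the sample titles. Per the file headers, each deposited table gives unigene ID, length, expected count and FPKM. The expected counts were deposited without normalisation, and the FPKM deposited by the authors is scaled for effective length and library size. Tools listed in the submitters' processing notes are RSEM (version 1.2.12) and DESeq, without their role. How reads were filtered, assembled and aligned is not given in the sources consulted. A unigene absent from a table was taken as 0. Only unigenes with an expected count above 0 are listed, so numbers of unigenes and of contigs per cluster leave out those without reads. The length column is the same in every table.

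The members and all lists were chosen with earlier results of these data known. For the 2 unigenes named by ID the highest FPKM in the lowest shaded library was taken, and the next 8, the longest, the most and least variable, those without field reads and those at the limits of the rule are given by length. A few others were described after their values were seen, among them the cluster cases. No gene list was tested, since no names are given.

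Rounded expected counts entered a robust, two-sided quasi-likelihood test in edgeR (version 4.0.16, under R 4.3.3) after filterByExpr at a minimum count of 10 and TMM scaling, with Benjamini-Hochberg adjustment over 46778 unigenes. DESeq2 1.42.0, other filters, limits, covariates and left-out libraries were alternatives. Effective length was computed from expected count and FPKM for unigenes over 200 counts, and fragment classes were divided at 180 bases. Cluster FPKM is the sum over contigs. Intervals are 95% and cover counting error only. Equal replicate numbers do not pair libraries in the labels. Tables were handled in Python 3.11.15 with pandas 2.3.3, and intervals came from scipy 1.17.1.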

Additional observations from a re-analysis of the deposited data

How the results depend on the processing

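The set has 33 members. It had 12 with a field limit of 0.5, 73 with a field limit of 2, 95 with a shaded minimum of 5, 12 with a shaded minimum of 20 and 20 with a minimum length of 1000 bases. It had 30, of which 26 were members, with FPKM recomputed over full length and TMM-scaled library size, 2 changes made together. Leaving out a library gave 33 to 99, the highest without field replicate 3. The median shaded level and the share of shaded counts on members moved by less than 1 SD. For the level this is the SD of the median member FPKM among the 3 shaded libraries, 5.66, and for the share it is 0.0199. For the share without a library the outcome was fixed, since dropping 1 of 3 values cannot move their mean by 1 SD. The level was 22.5 FPKM, 17.5 with the recomputed FPKM and 21.0 to 23.1 without a library, and the share was 0.101% to 0.119% without a library. The median spread among shaded libraries was 1.49 in CPM and 1.22 to 1.33 without a library, where fewer values are compared.

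Of all unigenes, edgeR called 4795 (2210 higher, 2585 lower). Without a filter on low counts 10417 were called (4349 and 6068), with the DESeq2 Wald test 9238 (4243 and 4995) and with the fragment class as a covariate 2315 (1099 and 1216). Leaving out a library gave 690 to 4096 (282 to 2167 higher, 408 to 1929 lower), with 25 to 32 members and 5 to 18 cluster mates called higher. With the replicate number as a block, 371 were called (147 and 224), with 15 members and 2 cluster mates. Deviations of same-numbered libraries correlated at -0.01, 0.01 and -0.09, and 0 field libraries correlated best with their own number. The labels give no pairing, and a block leaves fewer residual degrees of freedom. The cause of these shifts, that with the block included, was not tested. The 2 named unigenes stayed called higher in all 11 alternative fits, a result that their selection largely sets. The alternatives for cluster mates and for the spread were chosen after seeing the data. Depth limits the field levels, which rest on a median of 17 counts per member.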
